A study of Mus musculus with 48 samples.

Results

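Th, Dbh, Ngfr, Gap43, Uchl1, Tubb3 and Mbp, 7 genes of nerve fibers and Schwann cells, were followed through every sample of an RNA-seq series on liver spheroids grafted in the mouse eye. They were chosen by name as genes of sympathetic transmitter synthesis (Th, Dbh), of axons and neurons (Gap43, Uchl1, Tubb3) and of Schwann cells and neurotrophin reception (Mbp, Ngfr), out of 46517 genes in the count files, of which 31929 had a count in any sample. The labels give all groups as wild-type albino C57BL/6N, whereas the study's methods name an albino B6/J strain, and the study used adult mice of both sexes, with the sex of each sample not given in the sources used here. Spheroids made from hepatocyte-enriched primary cells were placed in the anterior chamber of the eye (ACE), where they engraft on the iris. The 5 explants, numbered 1, 2, 4, 5 and 6, were collected at 2 months post-transplant and hold the grafts together with surrounding iris. They stood beside 3 irises of mice without a graft, 3 livers, 3 preparations of freshly isolated hepatocytes and 2 in vitro spheroid samples. Each of the 16 samples was sequenced as 3 technical libraries, which were summed, and the summed totals ran from 2718518 counts in a hepatocyte preparation to 6789648 in an explant. The labels do not say whether samples of a group came from separate animals or cultures, so p-values here measure the spread between these samples.

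An explant is a mixture, which limits it as a model of the graft: a nerve transcript in it can come from the iris or from the graft, and in such bulk samples fewer cells of a type and less RNA per cell cannot be told apart. The iris is densely innervated. Sympathetic fibers serve its dilator muscle, parasympathetic fibers its sphincter, and sensory fibers come from the trigeminal ganglion. The cell bodies of the sympathetic fibers lie in the superior cervical ganglion, outside the eye, while Schwann cells lie along the fibers within the tissue. Tyrosine hydroxylase and dopamine beta-hydroxylase make noradrenaline in sympathetic neurons, and the liver also receives sympathetic fibers.

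The regions just upstream of the RefSeq starts of Th and Ngfr are shown because Th is the usual stain for sympathetic fibers and Ngfr was the member with the largest explant-to-iris ratio that was not at the detection floor. RefSeq sequences on GRCm38.p6 were found for 5 of the 7 members. Bases that GENCODE M21 places in an exon of the gene were left off. Th lies at chr7:142900015-142900245 and Ngfr at chr11:95587736-95587948, both on the minus strand, and both are given 5′ to 3′ with the cAMP response element TGACGTCA and the GC box GGGCGG, searched on both strands, in capitals.
Th: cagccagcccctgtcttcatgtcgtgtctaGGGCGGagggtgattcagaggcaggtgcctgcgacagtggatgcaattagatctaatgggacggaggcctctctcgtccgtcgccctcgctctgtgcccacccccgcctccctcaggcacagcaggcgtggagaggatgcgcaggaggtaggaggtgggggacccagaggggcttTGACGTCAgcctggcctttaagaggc
Ngfr: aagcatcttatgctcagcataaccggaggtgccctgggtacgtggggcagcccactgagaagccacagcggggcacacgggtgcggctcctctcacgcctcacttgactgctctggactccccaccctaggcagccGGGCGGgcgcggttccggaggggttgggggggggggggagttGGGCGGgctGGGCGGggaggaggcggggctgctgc
The cAMP response element stood 45 bases before the Th start, and it occurs in 1.30% of 32851 RefSeq promoters over the same 231 bases. The Ngfr window held 3 GC boxes, a motif found in 27.4% of promoters over the same 213 bases. These matches describe the sequences only.

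The sympathetic enzyme genes were at or near the limit of detection in every group. Dbh (ENSMUSG00000000889, chr2:27165233-27183200) had 0 counts in all 16 samples. A count of 0 allows up to 3 counts, which for Dbh corresponds to between 0.477 and 1.00 TPM (a transcript level scaled for gene length and depth) depending on the sample. Th (ENSMUSG00000000214, chr7:142892752-142931128) had 22 counts in the whole series. Its counts in explants 1, 2, 4, 5 and 6 were 2, 6, 2, 3 and 2, and in the 3 irises 1, 2 and 3. The groups overlapped, and the pooled explant-to-iris ratio of Th was 1.20 with an exact 95% counting interval of 0.439 to 3.77. Liver 2 held 1 Th count, and the other livers, the hepatocyte preparations and the in vitro spheroids held 0. Neither gene passed the filter on low counts in any comparison, so a difference of Th or Dbh between explants and irises was not detectable at this depth.

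**Figure D1:**
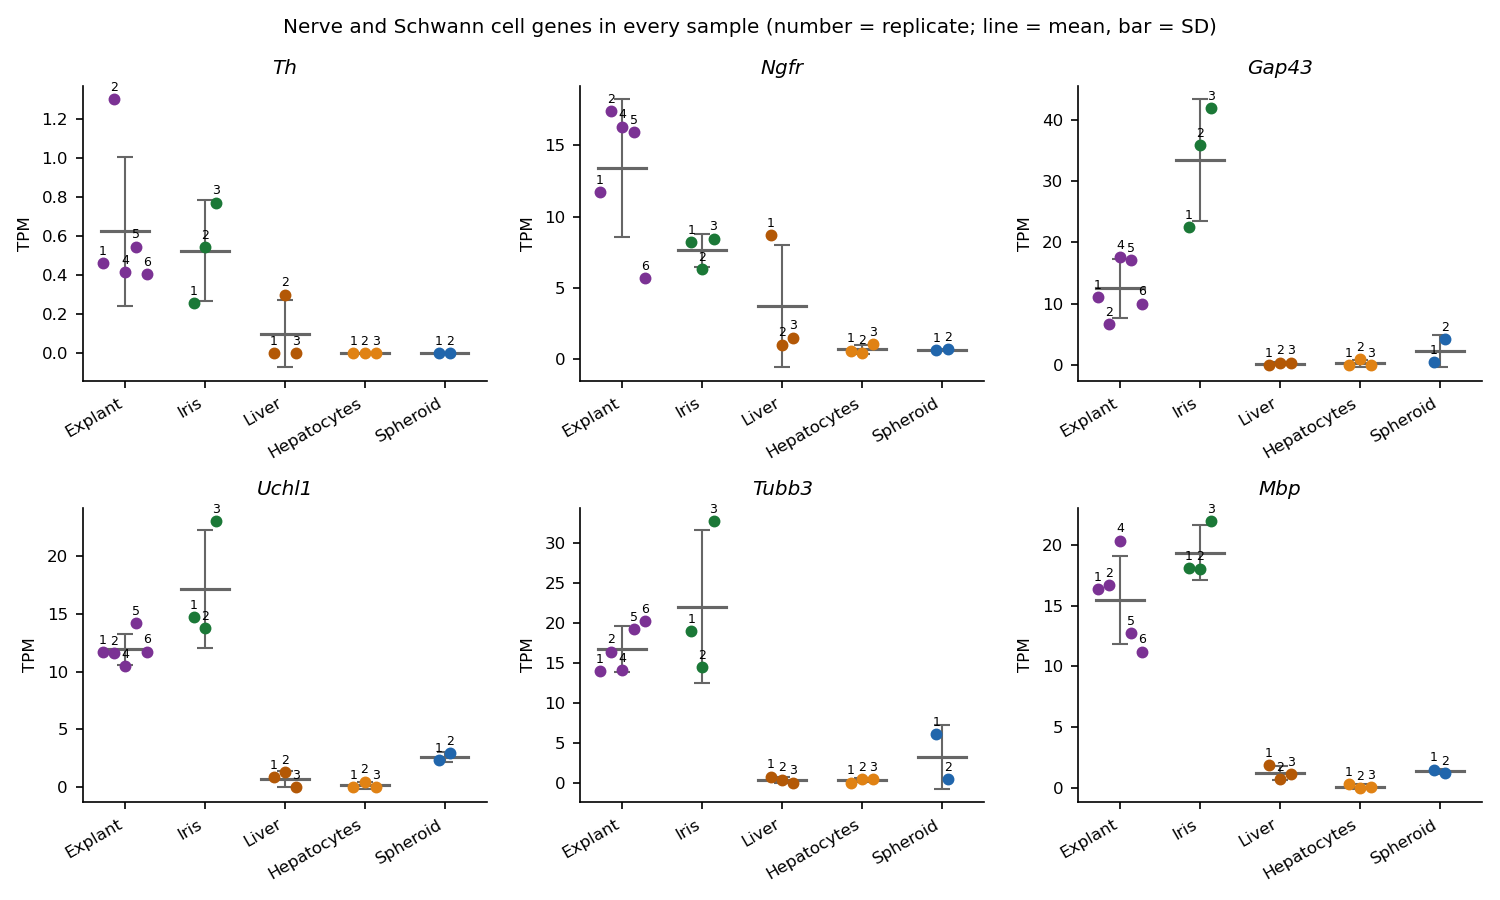
TPM of 6 members in each sample (vertical axis; points are samples numbered by replicate, lines are group means and bars SDs) across the 5 groups, with a separate scale per gene. Gap43 in the 5 explants lies below all 3 irises, Ngfr in 4 of 5 explants lies above all 3 irises, and Th stays at or under 1.30 TPM everywhere.

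The axonal genes were measured in irises and explants alike, and among them Gap43 fell below the level in irises. Gap43 (ENSMUSG00000047261, chr16:42248442-42340651) encodes growth-associated protein 43, a growth cone protein that is high in growing and regenerating axons. It measured 22.5, 35.8 and 41.8 TPM in the irises, and 11.1, 6.72, 17.6, 17.2 and 10.05 TPM in explants 1, 2, 4, 5 and 6. All explants lay below all irises, with means of 12.5 ± 4.73 (SD, n = 5) and 33.4 ± 9.91 (SD, n = 3). In the fit over all genes the log2 fold change of Gap43 was -1.32 ± 0.30 (SE), with an adjusted p of 0.0229 by edgeR's quasi-likelihood test with Benjamini-Hochberg adjustment. Gap43 was the single member called in this comparison, where a call needs both a log2 fold change beyond 1 in size and an adjusted p below 0.05, and where 6.47% of the 16764 genes tested were called.

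The call of Gap43 was near the threshold. Its adjusted p by edgeR was 0.0950 without iris 2 and 0.111 without iris 3, with log2 fold changes of -1.27 and -1.13. With all samples kept, it was 0.0549 in a single fit of all 5 groups and 0.0557 with a replicate block, with log2 fold changes of -1.35 and -1.61. In an exact two-sided permutation test of log2(TPM + 1), the difference of -1.38 gave p = 0.0357. This is the smallest p that the test can give for 5 against 3 samples.

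The explants also held liver RNA, with 7 of 7 hepatocyte genes called higher than in irises at a median log2 fold change of 2.79, so the comparison was repeated on an iris scale. On 1000 iris-enriched genes the explants held a median of 88.8%, 74.9%, 86.9%, 82.9% and 62.5% of the iris level. The iris shares of the authors' subtraction were solved here from their levels before and after it, and were 82%, 68%, 81%, 72% and 59%. For explant 4, whose corrected values follow another formula, the share was the one that returned those values under that formula. Gap43 reached 33.2%, 20.1%, 52.8%, 51.4% and 30.1% of the mean iris TPM, below both measures in 5 of 5 explants. Scaled on the iris-enriched genes, its log2 fold change was -1.08 ± 0.30 with an adjusted p of 0.0384 by edgeR. That call was lost without explant 1, without explant 2 and without any of the 3 irises, with adjusted p between 0.0533 and 0.154. The scaling moved the median of all genes tested from 0.01 to 0.27 on the log2 scale. It called 2 members, Gap43 lower and Ngfr higher, beside 8.48% of all genes.

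**Figure D2:**
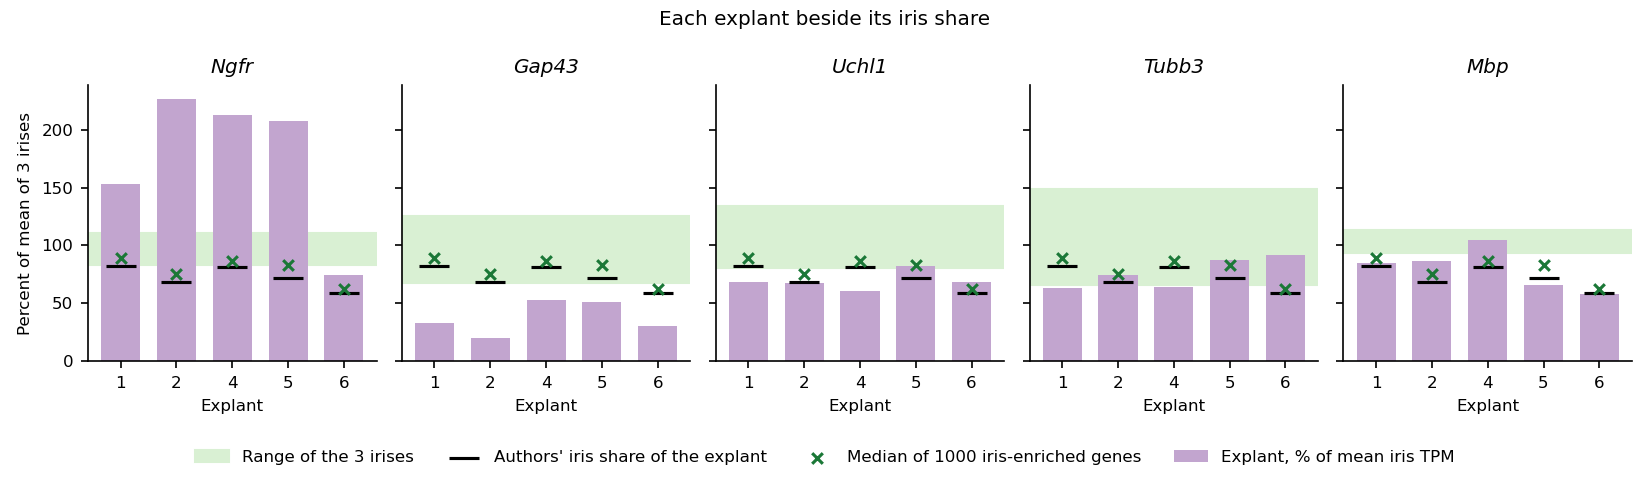
Level of 5 members in each explant as a percent of the mean TPM of the 3 irises (bars), beside the iris share of that explant solved from the authors' values (black line), the median of 1000 iris-enriched genes (green cross) and the range of the 3 irises (green band). Ngfr stands above and Gap43 below both measures in all 5 explants, while Uchl1, Tubb3 and Mbp lie on either side of them.

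Tubb3 and Uchl1 lay on both sides of the iris share. Tubb3 (ENSMUSG00000062380, chr8:123411424-123422015) encodes the neuronal beta-III tubulin and measured 13.99, 16.4, 14.1, 19.3 and 20.2 TPM in explants 1, 2, 4, 5 and 6 and 18.95, 14.4 and 32.8 TPM in the irises. The groups overlapped, and Tubb3 was not called, with a log2 fold change of -0.28 ± 0.28 and an adjusted p of 0.555 by edgeR. On the iris scale its log2 fold change was -0.0035 ± 0.33. Explant 6, which had the lowest iris share, had the highest Tubb3 level of the explants, at 91.7% of the iris mean against a share of 59%.

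Uchl1 (ENSMUSG00000029223, chr5:66676091-66687234) encodes the neuronal ubiquitin hydrolase PGP9.5, a widely used stain for nerve fibers. It measured 11.7, 11.6, 10.5, 14.2 and 11.7 TPM in the explants and 14.7, 13.8 and 23.04 TPM in the irises, so explant 5 reached into the iris range and the others lay under it. It was not called, with a log2 fold change of -0.42 ± 0.22 and an adjusted p of 0.255 by edgeR, and -0.16 ± 0.26 on the iris scale. Of its 1632 exonic bases, 295 overlap the antisense gene Uchl1os, which had 128 counts over the series, and without strand in the counting the reads of this stretch cannot be told apart. The exons of the other members overlap no other gene in GENCODE M21.

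Retinal RNA differed between samples of a group. The summed level of a list of 19 retinal genes was 1079, 1406, 992, 2174 and 689 TPM in explants 1, 2, 4, 5 and 6 and 1884, 1379 and 3628 TPM in the irises. Explant 5 and iris 3 were highest in their groups. Of the 19 genes 16 were tested between explants and irises and 0 called by edgeR (3 at an unadjusted p under 0.05), with a median log2 fold change of -1.18. Snap25, a synaptic membrane fusion protein that retinal neurons also make, was 26.9 TPM in explant 5 and 55.2 TPM in iris 3, and 0.0704 TPM in explant 6. Iris 3 was also the highest iris for each of the 6 members with counts. Without explant 5 and iris 3, a choice made after seeing these values, Gap43 had a log2 fold change of -1.26 with an adjusted p of 0.121 by edgeR, and Tubb3 had 0.07. The part of retinal RNA in these differences was not tested.

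**Figure D3:**
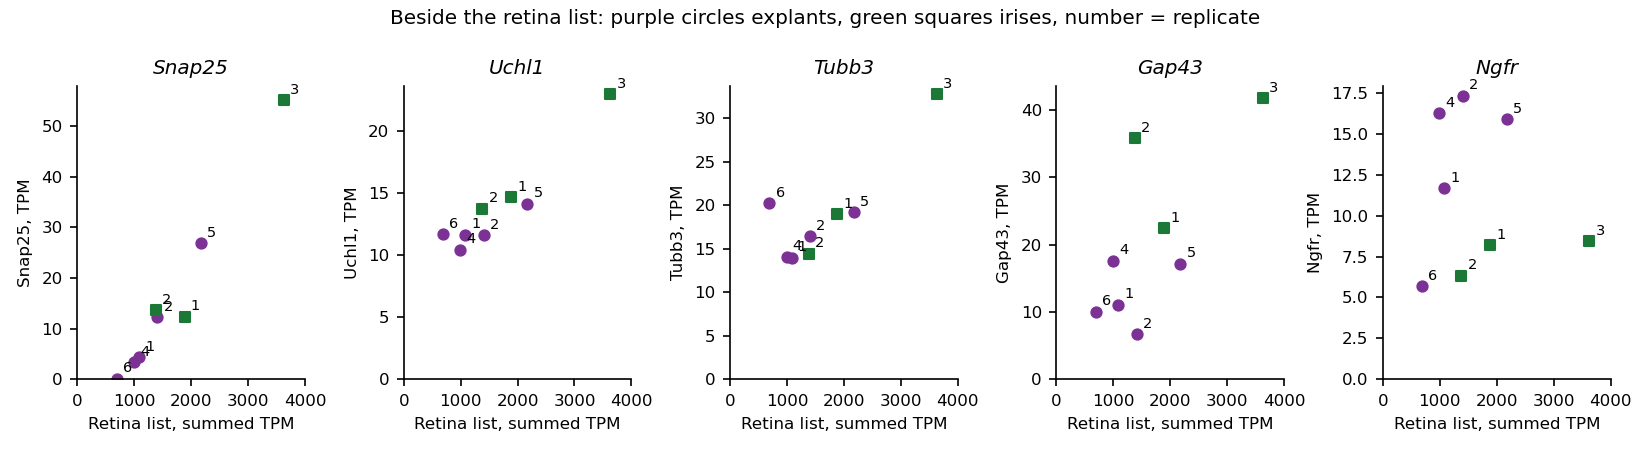
TPM of the synaptic gene Snap25 and of 4 members (vertical axes) against the summed TPM of 19 retinal genes (horizontal axis) in the 5 explants (purple circles) and 3 irises (green squares), numbered by replicate. Snap25 is highest where the retinal sum is highest, at 55.2 TPM in iris 3, while Gap43 is lower in every explant than in any iris and the highest Ngfr level, 17.4 TPM, is in explant 2.

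Ngfr was the member that stood above the iris in the explants. Ngfr (ENSMUSG00000000120, chr11:95568818-95587735) encodes the low-affinity neurotrophin receptor p75, which is made by sympathetic and sensory neurons, immature and non-myelinating Schwann cells and, in liver, by hepatic stellate cells and portal fibroblasts. It measured 11.7, 17.4, 16.3, 15.9 and 5.69 TPM in explants 1, 2, 4, 5 and 6 and 8.18, 6.33 and 8.45 TPM in the irises. Explants 1, 2, 4 and 5 lay above all irises and explant 6 below them. With library-wide scaling Ngfr was not called, with a log2 fold change of 0.89 ± 0.32 and an adjusted p of 0.104 by edgeR. Without explant 6 this became 1.03 with an adjusted p of 0.00999.

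On the iris scale Ngfr was called higher, with a log2 fold change of 1.13 ± 0.29 and an adjusted p of 0.0304 by edgeR. Explants 1, 2, 4, 5 and 6 held 153%, 227%, 213%, 208% and 74.3% of the iris mean, above both iris measures in 5 of 5 explants. The call was lost without explant 2, without explant 5 and without any of the 3 irises, with adjusted p between 0.0577 and 0.106, while the log2 fold change stayed between 0.98 and 1.27 over all samples left out in turn. Ngfr had 41 to 128 counts per explant and 34 to 48 per iris. Its technical libraries differed within an explant by up to 26 against 57 counts, in explant 5.

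Mbp lay on both sides of the iris share. Mbp (ENSMUSG00000041607, chr18:82475146-82585637) encodes myelin basic protein of compact myelin, and its locus also makes golli transcripts in other cell types, which a count per gene includes. It measured 16.3, 16.7, 20.3, 12.7 and 11.2 TPM in the explants and 18.07, 18.03 and 21.9 TPM in the irises. Explants 5 and 6 were lowest, at 65.9% and 57.9% of the iris mean, and explant 4 reached 105%. Mbp was not called on either scale, with log2 fold changes of -0.23 ± 0.16 (adjusted p of 0.377 by edgeR) and 0.014 ± 0.15 (adjusted p of 0.953 by edgeR). With 197 to 350 counts per explant and 236 to 304 per iris, it was the most deeply counted member.

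The 8 oligodendrocyte genes summed to 6.16 to 12.8 TPM in explants and 7.52 to 11.1 TPM in irises. Sox8, a transcription factor also made outside oligodendrocytes, was the highest of them in irises, at 5.00, 4.53 and 6.81 TPM against 1.69 to 6.18 TPM in explants. Between explants and irises 3 of the 8 genes were tested and 0 called by edgeR. The median log2 fold change was -0.61, with 1 gene above 0. That gene was Myrf, at 1.18 ± 0.38 with an adjusted p of 0.0751 by edgeR. The iris scale called Myrf higher, at 1.48 with an adjusted p of 0.0468 by edgeR. In irises against livers Myrf was lower, at -3.71. Of the others, Olig2 and Opalin had no count in explants or irises, and Mog stayed at or under 0.356 TPM there. Myrf, Olig2, Opalin and Mog were named after their values were seen.

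**Figure D4:**
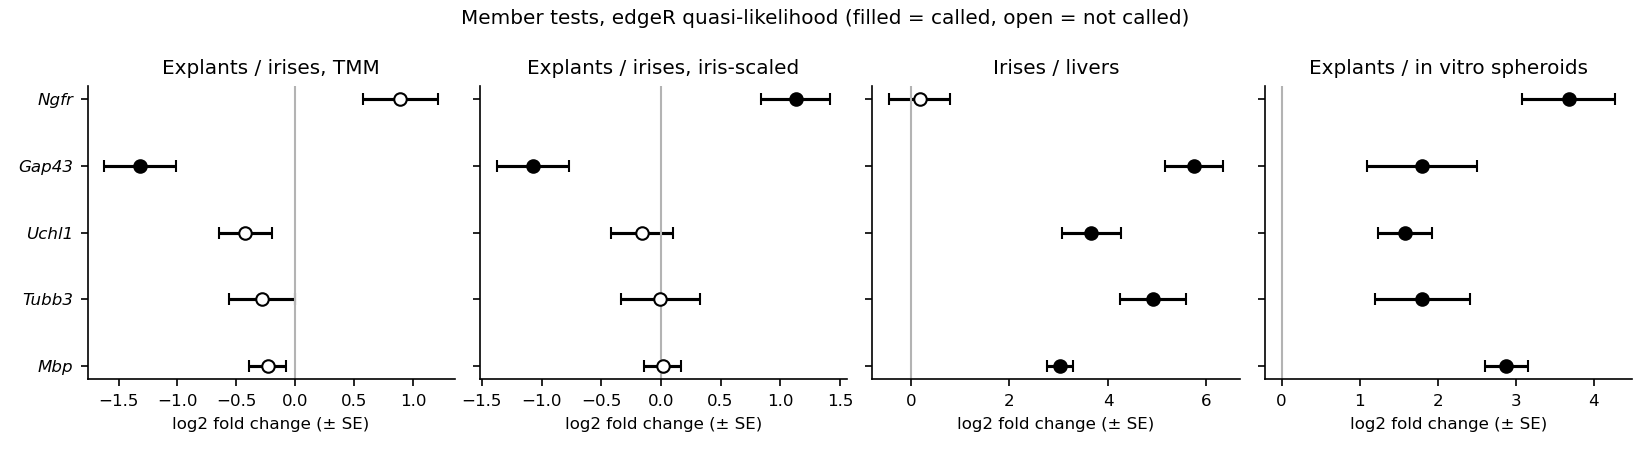
log2 fold change (horizontal axes, ± SE) of 5 members in 4 comparisons by edgeR's quasi-likelihood test, with filled points for called and open points for members not called. Ngfr and Gap43 stand on opposite sides of 0 between explants and irises, at 0.89 and -1.32 with library-wide scaling and 1.13 and -1.08 on the iris scale.

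The wider nerve lists, made of known markers of each cell type, gave 5 calls among 71 genes tested between explants and irises, a share of 7.04% beside 6.47% of all genes. Of 14 sympathetic genes, 7 were tested, of which 4 had an unadjusted p under 0.05 by edgeR and 1 was called. The list median was 0.04 on the log2 scale, with 4 genes above 0, beside 0.01 for all genes tested. Npy, a sympathetic cotransmitter, measured 48.2 to 117 TPM in the explants (median 81.9) and 75.3, 78.2 and 82.5 TPM in the irises. It also measured 20.1 and 27.02 TPM in the in vitro spheroids. There it was called higher than in hepatocyte preparations, at 3.61 on the log2 scale with an adjusted p of 0.0132 by edgeR. That comparison called 17.2% of all genes tested. Npy had 34 counts in the spheroids and 3 in the hepatocyte preparations, so it passed the filter on low counts through the spheroids. Chrnb4, a ganglionic nicotinic receptor subunit, measured 56.2 to 98.1 TPM in explants (median 89.3) and 81.0 to 92.8 TPM in irises. Slc18a2, the vesicular monoamine transporter, named after its values were seen, was at 11.9 ± 1.71 TPM in explants and 16.7 ± 1.94 TPM in irises (SD, n = 5 and 3), with an adjusted p of 0.0937 by edgeR. Slc6a2, the noradrenaline transporter, also named after its values were seen, lay the other way, at 0.237 to 1.32 TPM in explants and 0 to 0.491 TPM in irises. Its log2 fold change was 2.11 ± 0.85, with an adjusted p of 0.141 by edgeR and 52 counts in all explants against 6 in all irises. Chgb measured 0.698 to 13.4 TPM in explants and 9.64, 4.69 and 41.2 TPM in the irises, at -1.69 ± 0.87 on the log2 scale (adjusted p of 0.239 by edgeR). Chga, named after its values were seen, was at -2.17 ± 0.79 (adjusted p of 0.111 by edgeR). Both were highest in iris 3. The called gene was Ddc, the aromatic amino acid decarboxylase, higher in explants by 2.76 ± 0.48 on the log2 scale with an adjusted p of 0.0069 by edgeR. Ddc also serves outside neurons and measured 36.9 to 40.9 TPM in livers against 2.69 to 3.26 TPM in irises.

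The remaining neuronal lists held no called gene by edgeR, with unadjusted p under 0.05 for 0 of 3 cholinergic, 0 of 1 sensory and 3 of 12 general neuronal genes tested. Of 7 cholinergic and parasympathetic genes 3 were tested, with a median log2 fold change of -0.33. Prima1, the membrane anchor of acetylcholinesterase, was at 24.8 ± 3.08 TPM in explants and 25.95 ± 6.14 TPM in irises, and Nos1, neuronal nitric oxide synthase, at 14.9 ± 4.33 against 20.5 ± 0.372 TPM (SD, n = 5 and 3). Chat and Slc18a3, which define cholinergic neurons and were named after their values were seen, did not pass the filter, and the highest value of either was 2.01 TPM, for Slc18a3 in iris 3. Of 9 sensory genes 1 was tested, P2rx3, at 0.07 ± 0.26. Of 18 general neuronal and axonal genes 12 were tested, with 10 of them below 0 and a median of -0.67. Stmn3, a microtubule regulator of neurons and the most abundant of this list in the iris, came closest to a call, at 115, 64.9, 98.8, 103 and 63.6 TPM in the explants against 218, 159 and 184 TPM in the irises. Its log2 fold change was -0.99 ± 0.17 with an adjusted p of 0.00702 by edgeR, just short of the limit on fold change. Prph, peripherin of peripheral axons and a gene named here after its values were seen, lay on the other side, at 6.41 to 20.6 TPM in explants and 4.13 to 7.48 TPM in irises, with a log2 fold change of 1.09 ± 0.41 and an adjusted p of 0.121 by edgeR.

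Schwann cell lists had medians near 0. Of 15 genes of myelinating Schwann cells 13 were tested, with a median of 0.15 and 1 call, and of 12 genes of non-myelinating or immature Schwann cells 11 were tested, with a median of -0.0029 and 1 call. S100b measured 326 to 471 TPM in explants (median 402) and 499 to 592 TPM in irises, and Ncam1 122 to 194 TPM (median 169) against 170 to 185 TPM. Pmp22, a peripheral myelin protein also made by other cells, was at 375 ± 44.2 TPM in explants and 516 ± 30.6 TPM in irises. The called genes were Pllp and Erbb3, at 1.21 ± 0.28 and 1.73 ± 0.31 on the log2 scale with adjusted p of 0.0244 and 0.007 by edgeR. Both were higher in livers than in irises, Pllp at 35.4 against 7.20 TPM and Erbb3 at 61.6 against 4.42 TPM.

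Among 11 neurotrophic factors and guidance cues 9 were tested, with a median of -0.18 and 1 call. The called gene was Nrg1, neuregulin 1, at 1.39 to 5.68 TPM in explants (median 3.41) and 0, 0 and 0.577 TPM in irises, with an adjusted p of 0.0144 by edgeR. Nrg1 had 79 counts in all explants and 2 in all irises, so it passed the filter on low counts through the explants. It measured 34.3 and 8.80 TPM in the in vitro spheroids and 6.29, 0 and 0.314 TPM in livers 1, 2 and 3. Ntf3, neurotrophin 3, was at 111 ± 22.1 against 135 ± 2.81 TPM. Of 8 receptors of these factors 7 were tested and 0 called by edgeR (2 at an unadjusted p under 0.05), with a median of 0.0014, while Nrp1, a semaphorin and VEGF receptor, had an adjusted p of 0.00604 by edgeR at a log2 fold change of 0.42. Of 14 adrenergic and muscarinic receptors 8 were tested, with a median of 0.12, and Adra1b was called at 1.15 ± 0.31. Its level was 42.7 TPM in livers and 5.29 TPM in irises. The iris scale also called, in the Schwann cell lists, Fabp7, a fatty acid binding protein of immature Schwann cells, at 1.26 on the log2 scale with an adjusted p of 0.0333 by edgeR, named after its values were seen. Fabp7 measured 38.3 and 27.7 TPM in the in vitro spheroids, 10.2 to 21.2 TPM in explants and 5.65 to 10.1 TPM in irises, and explants were called lower than spheroids, at -1.74 with an adjusted p of 0.000876 by edgeR.

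**Figure D5:**
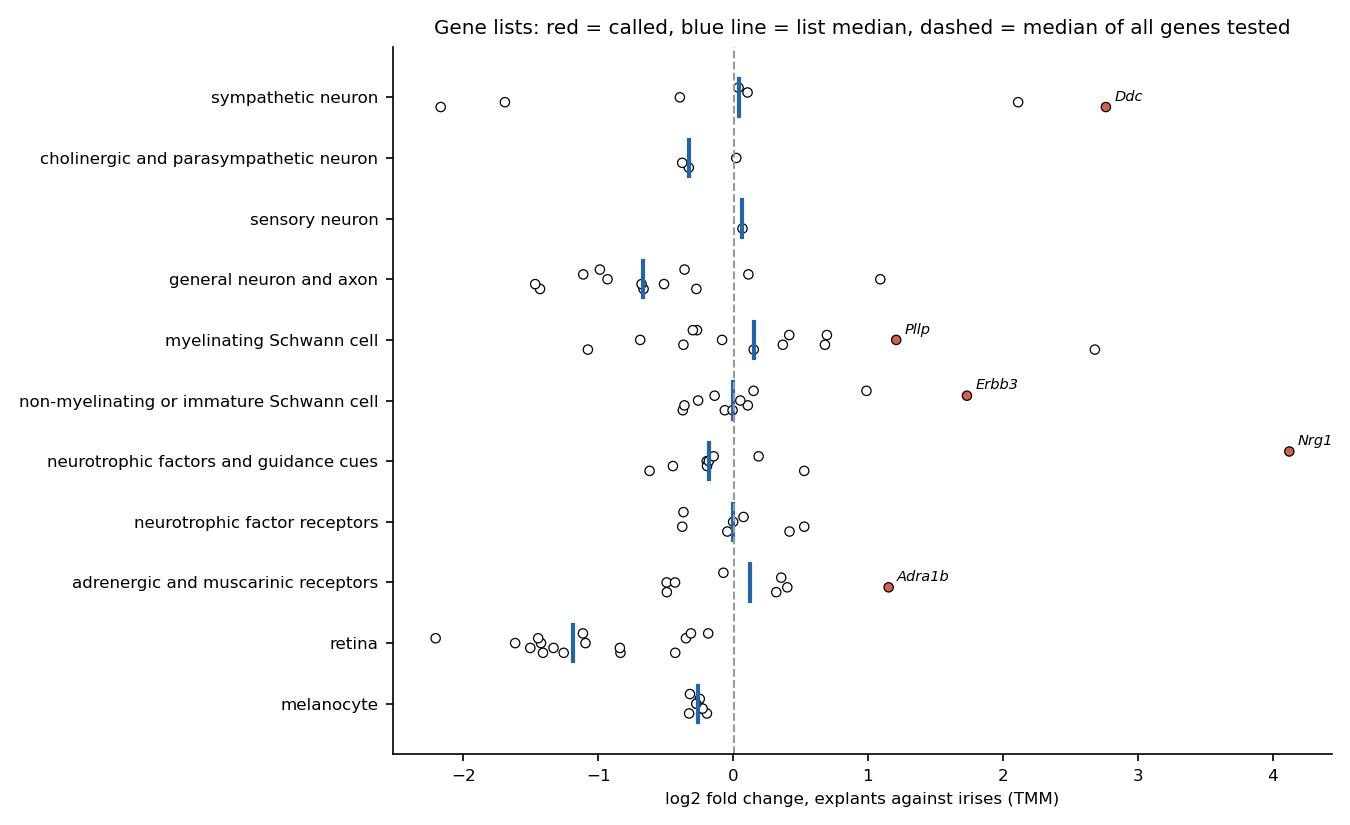
log2 fold change, explants against irises, of each tested gene of 11 lists (points; red for called genes, which are named), with list medians (blue lines) and the median of all genes tested (dashed line, 0.01). The 5 called genes lie to the right, from 1.15 for Adra1b to 4.12 for Nrg1, and the retina list has its median at -1.18.

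Against livers, the irises held far more of the neuronal members. The irises were higher for 4 of 7 members (51.9% of the 15459 genes tested were called): Gap43, Tubb3, Uchl1 and Mbp, at 5.74 ± 0.59, 4.91 ± 0.66, 3.66 ± 0.60 and 3.03 ± 0.26 on the log2 scale. They passed the filter through the irises, so their number describes the iris and says nothing particular of the members. Pooled Gap43 counts were 247 in irises and 2 in livers, a ratio of 95.8 per count of depth with a counting interval of 26.2 to 796. Uchl1 gave 21.3 (8.89 to 66.5) and Mbp 13.1 (9.75 to 17.97). For scale, 8 melanocyte genes measured in livers 1.25% to 8.35% of their iris level, and the liver held 0.894% of the iris level for Gap43, 1.70% for Tubb3, 4.17% for Uchl1 and 6.61% for Mbp. Whether the low liver counts of these 4 members came from the livers themselves was not tested.

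Ngfr was the exception, through 1 liver. Liver 1 held 43 Ngfr counts (8.69 TPM), above all 3 irises, and livers 2 and 3 held 5 and 8 (1.02 and 1.53 TPM). The log2 fold change of irises against livers was 0.18 ± 0.62 with an adjusted p of 0.809 by edgeR, and it was 1.62 with an adjusted p of 0.00327 without liver 1. The summed level of 7 stellate cell genes was 463 TPM in liver 1 and 205 and 209 TPM in livers 2 and 3. Of them Pdgfrb, named after its values were seen, was at 23.02 TPM against 2.96 and 3.25. The part of these cells in the Ngfr level of liver 1 was not tested.

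The cells that made the spheroids carried almost none of the members. In the 3 hepatocyte preparations the counts were 0 to 4 for each member in each sample, and 0 of 7 members were tested against livers by edgeR, in a comparison where 2.72% of 12236 genes were called. The pooled ratio of Ngfr in hepatocyte preparations to livers was 0.189 (0.0820 to 0.384), and that of Mbp 0.125 (0.0388 to 0.313), as counting intervals only. In the 2 in vitro spheroid samples Uchl1 had 5 and 6 counts, Tubb3 15 and 1, Gap43 1 and 8, Ngfr 3 and 3, and Mbp 17 and 13. Mbp was the single member tested and called against hepatocyte preparations, at 2.76 ± 0.76 on the log2 scale with an adjusted p of 0.0339 by edgeR, beside 17.2% of all genes. It passed the filter on low counts through the spheroid samples, so its being the single member tested says nothing particular of Mbp. The call was lost without either spheroid sample and without hepatocyte preparation 3, with adjusted p between 0.0951 and 0.135. At 1.54 and 1.25 TPM it stayed at 7.19% of the iris level on average, and it was at 0.759% in hepatocyte preparations. For scale, 8 melanocyte genes measured 0.971% to 7.09% of their iris level in spheroids and 1.02% to 8.86% in hepatocyte preparations. Whether the Mbp counts came from the spheroids themselves was not tested. Tubb3 differed between the spheroid samples, at 6.10 and 0.431 TPM, and the lower value lay within the range of the hepatocyte preparations.

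Compared with the in vitro spheroids, the explants were higher for 5 of 7 members, in a comparison where 45.9% of 17059 genes tested were called. The log2 fold changes were 3.68 ± 0.59 for Ngfr, 2.88 ± 0.28 for Mbp, 1.80 ± 0.61 for Tubb3, 1.80 ± 0.70 for Gap43 and 1.58 ± 0.35 for Uchl1, and adjusted p by edgeR ran from 3.89e-05 for Mbp to 0.0480 for Gap43. The members passed the filter through the explants, which hold iris, and explants share their samples with the comparison to irises. The call of Gap43 was lost without spheroid sample 1 (log2 fold change 0.87, adjusted p of 0.261 by edgeR) and without explant 1, 4, 5 or 6, with adjusted p between 0.0548 and 0.0809 by edgeR. Without spheroid sample 2 its log2 fold change was 4.07. The call of Tubb3 was lost without spheroid sample 2 (0.98, adjusted p of 0.0807 by edgeR), and its log2 fold change was 4.54 without sample 1.

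The order of levels was the same for 3 members. For Gap43, Tubb3 and Uchl1 the mean TPM fell from irises to explants to in vitro spheroids, with livers and hepatocyte preparations lowest. Irises and explants overlapped in range for Tubb3, Uchl1 and Mbp and not for Gap43. Livers and hepatocyte preparations overlapped for all 3. The place of the spheroids rested on 1 sample for Gap43 and Tubb3: Gap43 in spheroid sample 1 (0.499 TPM) lay under hepatocyte preparation 2 (1.04 TPM), and Tubb3 in spheroid sample 2 (0.431 TPM) lay within the ranges of livers and hepatocyte preparations. For Mbp the order was irises (19.3 TPM), explants (15.5), in vitro spheroids (1.39), livers (1.28) and hepatocyte preparations (0.147), where spheroids and livers overlapped. For Ngfr it was explants (13.4 TPM), irises (7.66), livers (3.75), hepatocyte preparations (0.705) and in vitro spheroids (0.681), where each group overlapped the next.

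The genes with the most similar pattern over the 16 samples were found by Pearson correlation of log2(TPM + 1) among genes averaging at least 1 TPM, as a description in which the points share groups, libraries and depth. For Ngfr these were Gm26827 and Tbc1d9 (r of 0.97 for both), for Gap43 Myf6 and Gtf2e1 (0.98 and 0.97), and for Uchl1 Ensa and Mcrs1 (0.99 and 0.98). For Tubb3 they were Gm28033 and Wnt9a (0.99 for both), and for Mbp Soat1 and Sptbn1 (0.99 for both). For Th, at 22 counts, Wfdc6a and Gdap1l1 led with 0.92 for both.

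After removal of the iris part, the members differed in sign. The study's formula takes the iris share times the mean iris TPM from the explant and divides by the rest. For Ngfr the remainder was positive in 5 of 5 explants, from 2.86 TPM in explant 6 to 53.1 TPM in explant 4. For Gap43 it was negative in 5 of 5, from -90.5 to -23.5 TPM. Uchl1, Tubb3 and Mbp had remainders below 0 in 3, 2 and 2 explants. The table that the authors corrected in this way lists Ngfr, Uchl1, Tubb3 and Mbp, with 0 in place of negative values, and does not list Th, Dbh and Gap43. In it explant 4 follows another formula, and the methods' formula returned 16.3% of its genes. For Ngfr in explant 4 the table holds 49.7 where that formula gives 53.1, and for Mbp 9.41 where it gives 24.5. The comparisons above use the uncorrected levels beside the irises.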

How the data were processed

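Smart-seq3 libraries were aligned with TopHat2 to mm10 and counted per gene with featureCounts, without strand, by the authors, who removed duplicates with UMI-tools and SAMtools. A read overlapping several genes was counted for each. The deposited counts of the 3 technical libraries of a sample sum to the authors' collapsed counts, which were tested here. TPM values deposited by the authors gave the levels. The authors' corrected explant values, from which an iris part was subtracted, were treated as a score and not tested. Of the 46517 genes, 46005 had a symbol, and the others were kept under their gene identifiers.

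Groups came from the sample labels. Pairs of groups were fitted with edgeR 4.0.16 in R 4.3.3 (filterByExpr, TMM scaling, quasi-likelihood test, Benjamini-Hochberg adjustment over all genes tested). For the iris scale, library sizes were set by 1000 genes of at least 10 TPM in irises and under 5% of that level in livers, hepatocyte preparations and spheroids. Exact permutation tests used log2(TPM + 1). Intervals are exact 95% and, like the floor of 3 counts, cover counting error only. Alternatives used DESeq2 1.42.0, limma 3.58.1, other scalings and filters, and samples left out. The test was checked on simulated data. Members and gene lists were chosen with earlier results of these data known. List genes named in the text are up to 3 called in each direction and up to 3 of the highest mean TPM in irises, with others said to be chosen after their values were seen. Replicate numbers were not used to pair samples in the main fits. Some genes of the lists are not reported here.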

Additional observations from a re-analysis of the deposited data

Results flagged for a closer look

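Th in explant 2, at 1.30 TPM from 6 counts, stood apart from the other 4 explants, which lay between 0.405 and 0.544 TPM with 2 or 3 counts each. The gap was large against the range of the 5 explants by Dixon's criterion, which chance meets in about 1 in 20 groups of normal values. That rate does not hold here, since the values rest on few counts and every member was screened.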

How the results depend on the processing

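Of 363 alternative log2 fold changes of members, 302 kept direction and side of the threshold, 35 lost the call, 3 gained it and 23 changed sign, none of which was called. The cause of these changes was not tested. Between explants and irises 1 member was called, and 0 in a single fit of all 5 groups, with a replicate block, or without explant 5 and iris 3, with 0 to 2 over samples left out in turn. On the iris scale 2 were called, 1 with TMM scaling and 0 without explant 5 and iris 3, with 0 to 2 over samples left out. Between irises and livers 4 were called, 0 when 10 counts were required in every sample, which removes genes low in liver, and 4 to 5 over samples left out. Between explants and in vitro spheroids 5 were called, 1 at 10 counts in every sample, 2 with technical libraries a alone, 3 with a replicate block, and 4 to 5 over samples left out. Between hepatocyte preparations and livers 0 were called, 1 in the single fit and 2 without a filter, with 0 to 0 over samples left out. Between spheroids and hepatocyte preparations 1 was called, 0 with DESeq2, at 10 counts in every sample, with technical libraries a or with a replicate block, 3 in the single fit, 2 without a filter, and 0 to 1 over samples left out. Where 1 spheroid sample remained, it was assumed to vary like the other group.

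Signs changed as follows on the log2 scale. For Tubb3 between explants and irises the values were 0.071 without explant 5 and iris 3, and -0.52 to 0.12 over samples left out. On the iris scale Tubb3 had 0.039 with iris-enriched genes under 2% elsewhere, 0.13 with technical libraries a, 0.17 with the replicate block, 0.38 without explant 5 and iris 3, 0.10 without explant 1, 0.097 without explant 4, 0.41 without iris 3 and 0.016 in the exact permutation test. Mbp had -0.020 with iris-enriched genes of at least 50 TPM, -0.23 with TMM scaling, -0.082 with technical libraries a, -0.043 without explant 2, -0.048 without explant 4, -0.015 without iris 1 or iris 2 and -0.0067 in the permutation test. Uchl1 had 0.012 with the replicate block, 0.073 without explant 5 and iris 3, and -0.28 to 0.12 over samples left out. Ngfr between irises and livers had -0.26 without liver 2 and -0.21 without liver 3, and up to 1.62 without liver 1. The labels do not say whether same-numbered samples belong together, and the main fits did not pair them. Deviations of same-numbered explants and irises correlated at 0.045 and -0.11, and those of irises and livers at -0.0046 to 0.030. Explants and in vitro spheroids gave 0.13 and 0.063, and spheroids and hepatocyte preparations 0.10 and 0.14. Hepatocyte preparations and livers gave 0.11, 0.063 and -0.043. Over all genes, explants and irises differed in 1085 genes, and in 583 with limma-voom, 644 at 10 counts in every sample and 363 without explant 5 and iris 3. Members with few counts limit the precision, and Th and Dbh could not be tested.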
